A study of Mus musculus with 10 samples.

Results

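The genes described here encode 10 amino acid transporters and transporter subunits of the kidney tubule, Slc6a19, Slc6a18, Slc7a9, Slc3a1, Slc7a13, Slc1a1, Slc7a7, Slc7a8, Slc3a2 and Slc7a12. They were chosen by name, for the work of their proteins in taking amino acids back from the tubular fluid, and all 10 were found among the 43629 genes of the count table. Kidneys came from male UM-HET3 mice, a genetically heterogeneous stock, and all animals were 4 months old. Control mice (n = 6) ate the Purina 5LG6 diet, and rilmenidine mice (n = 4) ate the same diet with 10 ppm of rilmenidine, a medicine for hypertension, for 1 month from 3 months of age. The controls were littermates, and the replicates were separate animals. Females and other doses were not analysed here.

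Amino acids filtered by the glomerulus are recovered almost completely by the proximal tubule. Carriers of the apical brush border take them from the tubular fluid into the cell, mostly with sodium or in exchange for other amino acids, and carriers of the basolateral membrane pass them on towards the blood. Several of the carriers work only with a partner protein that brings them to the membrane, and inherited loss of single members causes known disorders of urinary amino acid loss, such as Hartnup disorder, cystinuria and lysinuric protein intolerance. By this knowledge Slc6a19, Slc6a18, Slc7a9, Slc3a1, Slc7a13 and Slc1a1 were taken as apical, Slc7a7, Slc7a8 and Slc3a2 as basolateral, and Slc7a12 was assigned to neither side.

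Each library held 863605 to 3232063 counts, with a median of 1489031 in control and 2483263 in rilmenidine kidneys. The group means differed by 940440 (two-sided exact permutation test of the means, p = 0.0571, smallest p possible 0.00476). The members together took 0.191 to 0.270% of these counts. The libraries were uneven in a way the groups do not record, because the summed level of 1661 odorant and vomeronasal receptor genes was at least 10 CPM (the reads of a gene relative to the size of its library) in 7 libraries and lower in control 6, rilmenidine 3 and rilmenidine 4. Malat1, a nuclear RNA, ranged from 284 to 2100 normalized CPM in control and from 306 to 393 in rilmenidine kidneys. The labels name kidney as the tissue but their extraction text speaks of liver. All 10 proximal tubule markers passed the filter on low counts, with a summed level of 10189 to 13393 CPM in control and 11685 to 13780 in rilmenidine kidneys, whereas the 3 liver markers summed to 0 to 16.8 and 5.60 to 8.69 CPM.

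Levels are given as normalized CPM, that is, counts divided by a library size corrected with the RLE method. Testing required 6 or more reads in 7 or more of the 10 libraries, which 10055 genes and 8 of the 10 members did. Slc3a1 and Slc7a12 did not pass. In a whole kidney, fewer cells of a type and less RNA per cell cannot be told apart.

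The carriers of neutral amino acids are the sodium-coupled Slc6a19 (B0AT1), the main route in the early proximal tubule, and Slc6a18 (B0AT3), which is known from the later segments. Slc6a19 (ENSMUSG00000021565, chr13:73679745-73704865 of GRCm38, minus strand) lies beside Slc6a18 (ENSMUSG00000021612, chr13:73661752-73678023, minus strand). Slc6a19 had 448 CPM in the lowest, 653 in the median and 715 in the highest control kidney, and 1218, 705, 573 and 499 in rilmenidine kidneys 1 to 4. Rilmenidine 1 stood above every other kidney, while the other treated kidneys lay within the control range. The log2 fold change, rilmenidine over control, was 0.30 with a standard error of 0.22 and an adjusted p of 0.658 (edgeR's quasi-likelihood test, Benjamini-Hochberg over all genes tested). Without rilmenidine 1 it was −0.037, so the direction rested on that kidney.

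Slc6a18 had 162, 284 and 603 CPM in the lowest, median and highest control kidney and 130, 254, 351 and 374 in rilmenidine kidneys 1 to 4. It was the most variable of the 7 members with at least 10 counts in every library, with a coefficient of variation of 53.3% among controls against 18.9% for its neighbour Slc6a19. Control 3 alone held the highest level and rilmenidine 1 the lowest, and the groups overlapped. Its log2 fold change of −0.16 had a standard error of 0.33 (adjusted p = 0.924 by the same edgeR test), and it was 0.14 without control 3 and 0.08 without rilmenidine 1.

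Cystine and the basic amino acids are taken up by a pair of proteins, the light chain Slc7a9 (b0,+AT), which carries the substrate, and the heavy chain Slc3a1 (rBAT), which brings it to the brush border. Slc7a9 (ENSMUSG00000030492, chr7:35448796-35466036, plus strand) had the lowest coefficient of variation of the members among controls, 13.6%, with 66.5, 86.3 and 99.4 CPM in the lowest, median and highest control kidney. Rilmenidine kidneys 1 to 4 had 118, 89.1, 85.4 and 71.2 CPM. Again rilmenidine 1 was above the controls and the other 3 within their range. The log2 fold change of 0.09 had a 95% interval from −0.24 to 0.42, which spans 0.849-fold to 1.34-fold (adjusted p = 0.890, edgeR's quasi-likelihood test), and it was −0.055 without rilmenidine 1.

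Slc7a13 (AGT1; ENSMUSG00000041052, chr4:19818725-19842218, plus strand) carries aspartate, glutamate and cystine in the late proximal tubule and is also known to pair with Slc3a1. Its level was 412, 835 and 943 CPM in the lowest, median and highest control kidney, and 482, 516, 902 and 917 CPM in rilmenidine kidneys 1 to 4. Rilmenidine 1 and 2 were near the low end of the controls and rilmenidine 3 and 4 near the high end. On the log2 scale the fold change was −0.10 with a standard error of 0.24 (adjusted p = 0.926 by edgeR). It was 0.04 without rilmenidine 1 and 0.02 without rilmenidine 2.

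The heavy chain of both, Slc3a1 (ENSMUSG00000024131, chr17:85028376-85064236, plus strand), was almost absent from the counts, although it is known as an abundant transcript of the proximal tubule. It had 5, 2, 4, 5, 5 and 3 reads in control kidneys 1 to 6 and 4, 8, 8 and 12 in rilmenidine kidneys 1 to 4, while the light chains Slc7a9 and Slc7a13 together had 854 to 3164. In normalized CPM this was 2.98 ± 1.68 (SD, n = 6) and 3.30 ± 0.913 (SD, n = 4), and the groups overlapped. With a filter of 1 count in any library, the log2 fold change of Slc3a1 was 0.23 with a standard error of 0.67 (adjusted p = 0.948, edgeR's quasi-likelihood test). At this depth a change from 0.471-fold to 2.93-fold lay inside its 95% interval. Under that filter standard errors followed the spread of single genes less. They were 0.156 for Slc6a18 and 0.166 for Slc7a9, against 0.333 and 0.156 in the main fit.

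The libraries were prepared with a protocol that reads the 3′ end of each transcript, and the 3′ end of Slc3a1 is shared. In the GENCODE M21 annotation of GRCm38 all 500 of its last 500 exon bases also lie in an exon of Prepl, a gene on the opposite strand, which had 15 to 56 reads. Of the other members, Slc7a7 shares 232 of the 445 bases of its last exon with Oxa1l, also on the opposite strand (62 to 222 reads), and the remaining 8 members share 0 bases there. Slc1a1 shares 2631 exon bases with 4430402I18Rik, none of them in its last 500. Whether the counting used the strand is not given in the sources used here, so the reads of such pairs are uncertain. Among 21551 protein-coding genes, 953 (4.42%) share at least 50% of their last exon bases (up to 500) with a gene on the opposite strand. Of these, 37.0% passed the filter, against 44.9% of the 19680 that share none with that strand. Overlaps on the same strand did not enter these counts. Among the other carriers listed, the proline carrier Slc6a20b shares 499 of 500 bases and had a mean of 152 CPM. The peptide carrier Slc15a3, which shares 500 of 500, had a mean of 0.749 CPM. Slc7a10, which shares 237 of 397, had 0 CPM. The part of the shared end in the low counts of Slc3a1 and Slc7a7 was not tested.

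**Figure D1:**
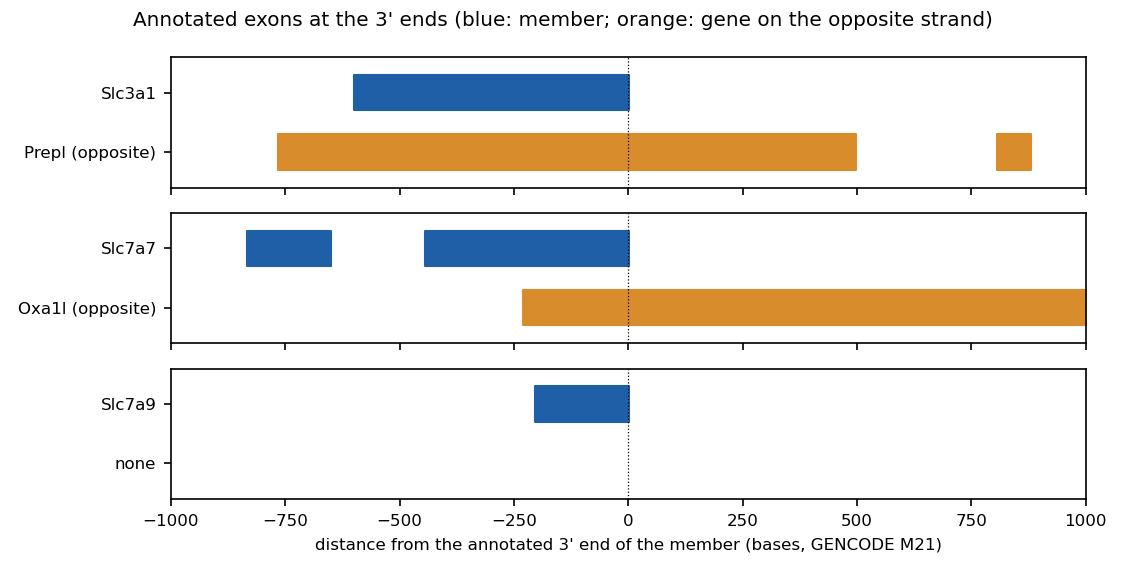
Annotated exons around the 3′ ends of Slc3a1, Slc7a7 and Slc7a9, with distance in bases from the member's annotated 3′ end on the x axis, member exons in blue and exons of the gene on the opposite strand in orange. The last exon of Slc3a1 lies wholly within an exon of Prepl, that of Slc7a7 lies partly within one of Oxa1l, and that of Slc7a9 is shared with no gene.

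Slc1a1 (EAAT3; ENSMUSG00000024935, chr19:28835049-28913960, plus strand) is the sodium-coupled apical carrier of glutamate and aspartate. It had 144, 191 and 232 CPM in the lowest, median and highest control kidney and 132, 153, 191 and 206 CPM in rilmenidine kidneys 1 to 4. Rilmenidine 1 lay below the controls and the other 3 within their range, and the difference was smaller than the spread between kidneys (log2 fold change −0.16, standard error 0.16, adjusted p = 0.776 by edgeR). It was −0.054 without rilmenidine 1 and −0.26 without rilmenidine 4.

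On the basolateral side the heavy chain Slc3a2 (4F2hc, CD98) brings several light chains to the membrane. Slc3a2 (ENSMUSG00000010095, chr19:8706882-8723369, minus strand) had 217, 258 and 344 CPM in the lowest, median and highest control kidney, and 346, 284, 283 and 299 CPM in rilmenidine kidneys 1 to 4. All 4 treated kidneys were above the control median, but 3 of them stood below the highest control. Its log2 fold change was 0.18, with a 95% interval from −0.12 to 0.48 (adjusted p = 0.695, edgeR's quasi-likelihood test).

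Slc7a8 (LAT2; ENSMUSG00000022180, chr14:54722209-54781946, minus strand), a light chain that exchanges neutral amino acids, had 53.9, 76.4 and 121 CPM in the lowest, median and highest control kidney. In rilmenidine kidneys 1 to 4 it had 95.7, 124, 88.5 and 66.5 CPM. Of the treated kidneys 3 lay above the control median, and the ranges overlapped (log2 fold change 0.23, standard error 0.21, adjusted p = 0.746 by edgeR). The size of this value rested on single kidneys, as it was 0.064 without rilmenidine 2 and 0.40 without control 6 (unadjusted p = 0.766 and 0.0402 by edgeR). Slc7a7 (y+LAT1; ENSMUSG00000000958, chr14:54369442-54417780, minus strand), the light chain that releases basic amino acids, had only 9, 7, 4, 7, 9 and 5 reads in control kidneys 1 to 6 and 10, 15, 8 and 7 in rilmenidine kidneys 1 to 4. Its normalized CPM were 5.00 ± 2.79 (SD, n = 6) and 4.73 ± 2.77 (SD, n = 4). With so few reads the 95% interval of its log2 fold change ran from −1.04 to 0.94 around −0.05 (adjusted p = 0.982, edgeR), so changes within it were not excluded at this depth.

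Unlike Slc3a1, the heavy chain Slc3a2 outnumbered its light chains here. The CPM of Slc3a2 divided by the summed CPM of Slc7a8 and Slc7a7 was 3.28 ± 0.704 (SD, n = 6) in control and 3.26 ± 0.910 (SD, n = 4) in rilmenidine kidneys. Slc3a2 is known from many cell types, and the cells its reads came from were not measured here.

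Slc7a12 (ENSMUSG00000039710, chr3:14480697-14505830, plus strand), a carrier of small neutral amino acids known to be higher in the kidneys of female mice, was read at the limit of detection in these males. It had 0, 3, 6, 5, 2 and 0 reads in control kidneys 1 to 6 and 4, 5, 14 and 12 in rilmenidine kidneys 1 to 4. The 0 counts allow up to 3.37 CPM in control 1 and 1.17 CPM in control 6, a limit that covers counting error only. All 4 treated kidneys were above the control median of 1.48 CPM, yet the groups overlapped. With the filter of 1 count in any library the log2 fold change was 0.87 with a standard error of 0.74 (adjusted p = 0.638, edgeR's quasi-likelihood test). The limit of that filter given for Slc3a1 holds here too.

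**Figure D2:**
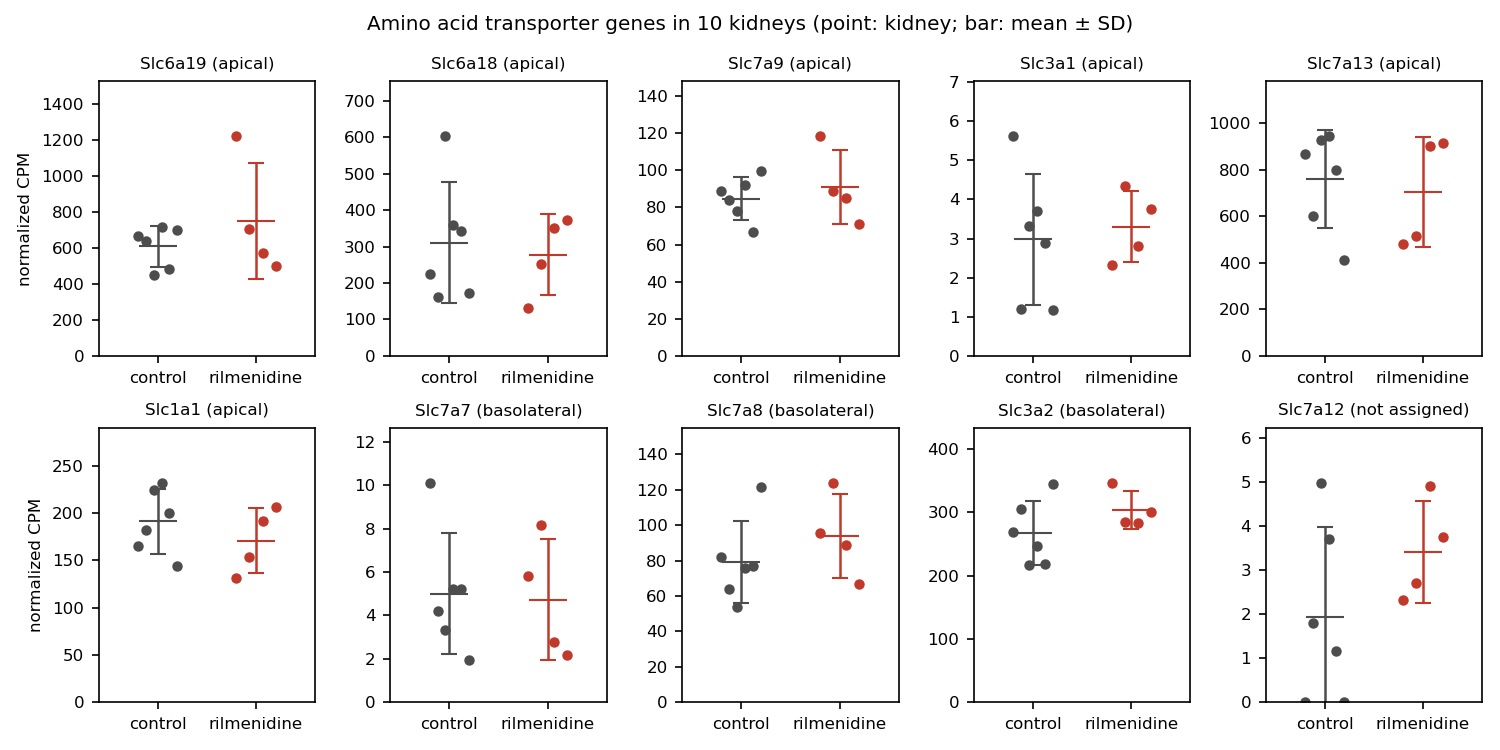
Level of each of the 10 genes in 6 control (grey) and 4 rilmenidine (red) kidneys, in normalized CPM on a linear axis that starts at 0, where a point is a kidney and the bar gives the mean ± SD. The groups overlap for all 10 genes, and rilmenidine 1, the first red point in each panel, is the highest for Slc6a19, Slc7a9 and Slc3a2 and the lowest for Slc6a18 and Slc1a1.

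Of the members as a group, 0 of the 8 members tested had an adjusted p under 0.05 (edgeR's quasi-likelihood test, Benjamini-Hochberg), as was so for 0% of all 10055 genes. An unadjusted p under 0.05 was reached by 0 of the 8 members, against 10.6% of all genes tested. Log2 fold changes were above 0 for Slc6a19, Slc7a9, Slc7a8 and Slc3a2 and below 0 for Slc6a18, Slc7a13, Slc1a1 and Slc7a7, with a median of 0.02 (all genes, 0.00). Of the 5 apical members tested 2 were above 0, and of the 3 basolateral members 2 were. Control and rilmenidine values overlapped for 10 of the 10 members. With log2 Malat1 as a covariate the sign turned for 7 of the 8, Slc6a19 excepted, and for none of them was the adjusted p under 0.05. Malat1 itself was lower in rilmenidine kidneys (log2 fold change −1.73, adjusted p = 0.211 by edgeR), so this covariate is partly confounded with the group.

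Most fold changes were larger within the 7 libraries that had at least 10 CPM on receptor genes, 5 control and 2 rilmenidine. There Slc6a19 had a log2 fold change of 0.71, Slc7a8 of 0.64, Slc7a13 of −0.73 and Slc1a1 of −0.49, each with an unadjusted p under 0.05 (0.00686, 0.00572, 0.00216 and 0.0153 by edgeR's quasi-likelihood test). Those 4 of 8 members compare with 10.6% of the 9796 genes tested in these libraries, and the smallest adjusted p of a member was 0.318. Slc6a18 had −0.82, Slc7a9 0.35, Slc3a2 0.33 and Slc7a7 0.38. Both treated kidneys of that fit were low in Slc7a13 and Slc1a1, and the treated kidneys it leaves out were the high ones. In Slc6a19 only rilmenidine 1 (1218 CPM) stood above the controls, and rilmenidine 2 (705 CPM) lay within their range. The remaining 3 libraries, with 2559118 to 3232063 counts, were also the deepest. They include only 1 control and were not fitted on their own, and the parts of receptor reads and depth in these values were not tested.

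**Figure D3:**
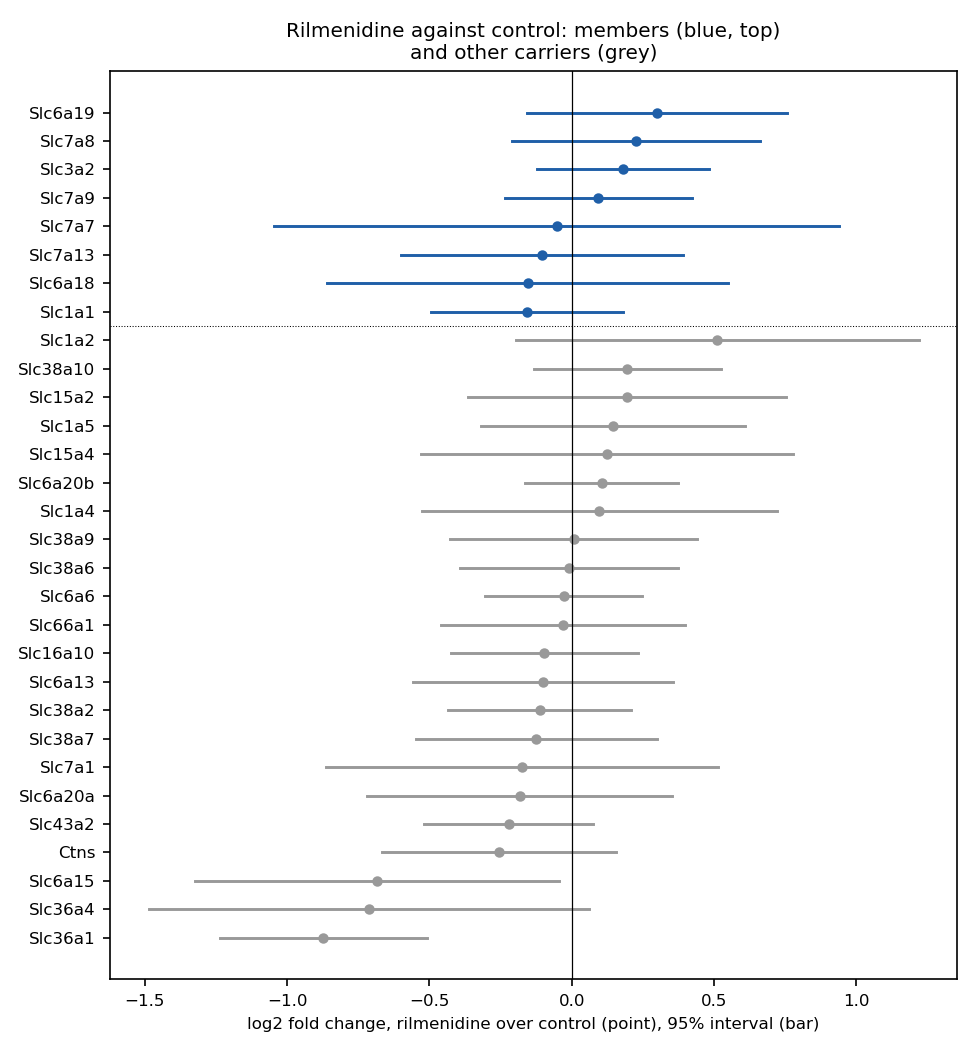
Log2 fold change (x axis, rilmenidine over control) with its 95% interval for the 8 members tested (blue, upper rows) and for the other carriers tested (grey), 13 of the plasma membrane, 7 of inner membranes and 2 of peptides. The intervals of all 8 members include 0, and among the other genes those of Slc36a1 and Slc6a15 lie below 0.

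Apical genes carried most of the members' reads. The summed level of the 6 apical genes was 1956 ± 327 CPM (SD, n = 6) in control and 1996 ± 183 CPM (SD, n = 4) in rilmenidine kidneys, and that of the 3 basolateral genes was 351 ± 68.2 and 402 ± 37.3 CPM. Their ratio was 5.59, 4.46, 8.34, 7.14, 6.30 and 3.26 in control kidneys 1 to 6 and 4.65, 4.14, 5.62 and 5.63 in rilmenidine kidneys 1 to 4. The mean ratio was thus 5.85 ± 1.83 and 5.01 ± 0.738, and every treated kidney lay within the range of the controls. The ratio depended on a few genes, since it was 15.2 ± 5.01 in control and 13.7 ± 3.42 in rilmenidine kidneys without Slc7a13 and Slc3a2, the genes of highest level on each side. It describes the genes listed here and not all carriers of either side, and it includes Slc3a1 and Slc7a7, whose reads are uncertain.

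Between genes, levels were compared as CPM per kilobase of annotated exon. Because the libraries read the 3′ end, counts need not grow with the length of a transcript, and the order in plain CPM was therefore read too. Per kilobase, the control means were 355 for Slc7a13, 121 for Slc6a19, 75.6 for Slc3a2, 70.3 for Slc6a18, 31.7 for Slc7a9, 23.1 for Slc1a1 and 15.8 for Slc7a8, followed by 1.51 for Slc7a7, 1.31 for Slc3a1 and 1.12 for Slc7a12. Of the 9 neighbouring pairs in this order only Slc7a13 above Slc6a19 and Slc7a8 above Slc7a7 had control ranges that did not overlap. In plain CPM the same genes held the first and the last places, Slc6a18 passed Slc3a2 and Slc1a1 passed Slc7a9, and the ranges of Slc7a13 and Slc6a19 overlapped.

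Subunits and partners were next compared between animals, as correlations of log2 CPM over the 10 kidneys after the mean of each group was subtracted, with two-sided exact permutation within groups and adjustment over 7 pairs. None of the 7 pairs passed after adjustment. The heteromer pairs gave r = −0.28 for Slc7a9 with Slc3a1, 0.62 for Slc7a13 with Slc3a1, −0.19 for Slc7a7 with Slc3a2 and 0.47 for Slc7a8 with Slc3a2 (exact permutation p from 0.0572 to 0.630, adjusted p from 0.134 to 0.630, n = 10). The few reads of Slc3a1 and Slc7a7 limit these values. Slc6a19 and its partner Cltrn (collectrin), which brings it to the brush border, gave r = 0.73 (exact permutation p = 0.0366, adjusted 0.128). By rank the pair gave rho = 0.79 (exact permutation p = 0.0161, adjusted 0.0984). Without the 2 kidneys farthest from the median r was 0.70 (exact permutation p = 0.119), and within the 7 libraries 0.68 (exact permutation p = 0.1). Slc6a18 with Cltrn gave r = −0.51 (exact permutation p = 0.164, adjusted 0.288). The neighbours Slc6a19 and Slc6a18 varied in opposite directions, with r = −0.80 (exact permutation p = 0.00891, adjusted 0.0624; rho = −0.75, p = 0.0281, adjusted 0.0984). Without rilmenidine 1 and rilmenidine 4, r was −0.71 (exact permutation p = 0.0979), and it was −0.71 within the 7 libraries (exact permutation p = 0.133).

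After these values were seen, all 21 pairs of the 7 members with at least 10 counts in every library were compared in the same way. The positive relations that passed after adjustment lay within 2 sets of members, and the negative ones ran between those sets or to Slc3a2. Slc6a19 and Slc7a9, an early neutral carrier and the cystine light chain, varied together most closely, with r = 0.92 (exact permutation p = 0.00127, adjusted over 21 pairs 0.0267) and rho = 0.95 (p = 0.00110, adjusted 0.0231). This relation held without rilmenidine 1 and rilmenidine 4 (r = 0.83, exact permutation p = 0.0153) and within the 7 libraries (r = 0.90, p = 0.0417).

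Slc6a18, Slc7a13 and Slc1a1 formed the other set. Slc6a18 gave r = 0.86 with Slc1a1 and 0.79 with Slc7a13, and Slc7a13 gave 0.87 with Slc1a1 (exact permutation, adjusted p = 0.0292, 0.0387 and 0.0359). Without the 2 kidneys farthest from the median of the first gene these 3 were 0.82, 0.80 and 0.71 (exact permutation p = 0.0319, 0.0292 and 0.0833). Within the 7 libraries they were 0.80, 0.75 and 0.51 (exact permutation p = 0.0625, 0.0750 and 0.363). Between the sets, the −0.80 of Slc6a18 with Slc6a19 had an adjusted p of 0.0374 by exact permutation over these 21 pairs, whereas it had not passed over the 7 pairs (0.0624), so this call depended on the family of pairs. The heavy chain Slc3a2 gave −0.86 with Slc6a18 and −0.74 with Slc7a13 (exact permutation, adjusted p = 0.0292 and 0.0491), and −0.72 with Slc1a1, which did not pass (exact permutation, adjusted p = 0.0506). Without the 2 kidneys farthest from the median these were −0.81, −0.37 and −0.42 (exact permutation p = 0.0708, 0.297 and 0.358). In all, 7 of the 21 pairs passed after adjustment by Pearson's r, and 2 by Spearman's rho. Their sign was the same within the 6 controls and within the 7 libraries for 7 of 7, but only 3 of the 7 kept an exact permutation p under 0.05 without the 2 kidneys farthest from the median, and 2 did within the 7 libraries.

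**Figure D4:**
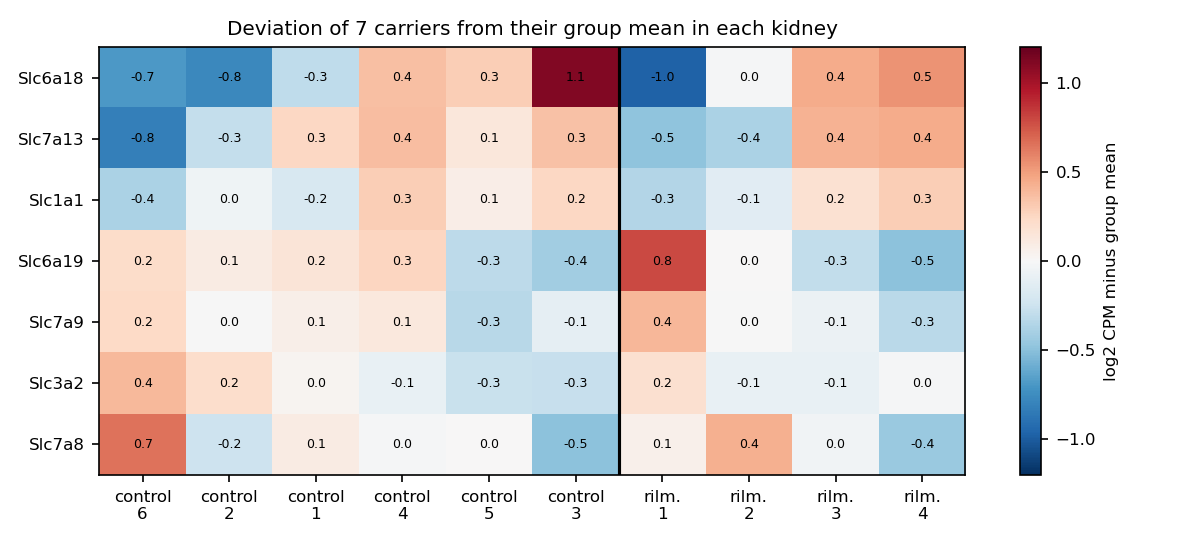
Log2 CPM of 7 members (rows) minus the mean of the group in each kidney (columns), on a colour scale from blue (below the mean) to red (above it), with kidneys of each group ordered by their ratio of Slc6a18, Slc7a13 and Slc1a1 to Slc6a19 and Slc7a9. Control 6 and rilmenidine 1 were low in Slc6a18, Slc7a13 and Slc1a1 and high in Slc6a19, Slc7a9 and Slc3a2, whereas rilmenidine 2, low in Slc7a13 and Slc1a1, was near its group mean in Slc6a19, Slc7a9 and Slc3a2.

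The balance of the sets can be read as the summed CPM of Slc6a18, Slc7a13 and Slc1a1, which are known from late segments, over that of Slc6a19 and Slc7a9, which are known from early segments. It was 1.67, 1.30, 3.34, 1.90, 2.46 and 0.915 in control kidneys 1 to 6 and 0.557, 1.16, 2.19 and 2.63 in rilmenidine kidneys 1 to 4. The groups overlapped, with the lowest value in rilmenidine 1 and the highest in control 3. Of 9 properties of the libraries compared with its log2 value across the 10 kidneys, 0 passed after adjustment. The nearest were the summed proximal tubule markers (r = −0.74, exact permutation p = 0.00926, adjusted 0.0833; rho = −0.70, p = 0.0187, adjusted 0.133), the collecting duct markers (r = −0.74, exact permutation p = 0.0261, adjusted 0.116; rho = −0.55, p = 0.119, adjusted 0.179) and the distal convoluted tubule markers (r = −0.71, exact permutation p = 0.0386, adjusted 0.116; rho = −0.73, p = 0.0296, adjusted 0.133). Without control 6 and rilmenidine 1 these were −0.52, −0.22 and −0.22 (exact permutation p = 0.207, 0.594 and 0.611). Endothelial and immune markers gave r = −0.45 (exact permutation p = 0.121) with all kidneys and −0.69 (exact permutation p = 0.0208) without those 2. Log2 CPM of Kap, a gene known to be raised by androgen in the kidney, gave r = 0.68 (exact permutation p = 0.0680, adjusted 0.122). Without control 6 and rilmenidine 1 the value for Kap was 0.79 (exact permutation p = 0.0514). Kap belongs to a list of 4 genes known to be raised by androgen, and the others were not compared with the balance. Between groups 2 of the 4 were higher and 2 lower with rilmenidine, so Kap alone does not stand for the list. Log2 Malat1 gave r = 0.52 and thick ascending limb markers 0.49 (exact permutation p = 0.0564 and 0.221). Log2 receptor gene CPM gave r = −0.24 and log2 total counts 0.06 (exact permutation p = 0.592 and 0.869). The marker sums add plain CPM, so genes of high level weigh most in them. Control means were 6002 CPM for Slc34a1 and 2794 for Miox among the proximal tubule markers. They were 709 for Calb1 among the distal convoluted tubule and 1076 for Umod among the thick ascending limb markers. A relation with a sum thus need not hold for each marker in it. The dissection of each kidney was not measured here, and its part in the balance was not tested.

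For each member tested, the gene of most similar pattern was sought among 10047 other genes by the same measure, Pearson's r of deviations from the group mean over 10 kidneys. Slc7a9 was most like Oat, ornithine aminotransferase (r = 0.98), and Slc6a18 most like Bhmt2, a methyltransferase of homocysteine (r = 0.98). The nearest genes were Gm12693 for Slc6a19 (0.97), Phactr2 for Slc7a13 (0.96), Lpgat1 for Slc1a1 (0.93), Zc3h8 for Slc7a7 (0.94), Sipa1l2 for Slc7a8 (0.94) and C1qtnf12 for Slc3a2 (0.99). Each is the highest of 10047 values, and they are descriptions only.

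Because Slc6a19 and Slc7a9 varied together while Slc3a1 stood apart by its low counts, the RefSeq promoters of these genes (GRCm38.p6, 250 bases before to 50 after the annotated start, each on its own strand) are shown. Entries were found for 7 of the 10 members, 12 promoters in all, and none for Slc6a18, Slc7a13 and Slc7a12. Capitals mark matches, on either strand, to the HNF1 half-site GTTAAT, the HNF4 site CAAAGTCCA and the TATA box TATAAA, motifs of factors known from the proximal tubule and of the general start machinery.
Slc6a19 (chr13:73692587-73692886, minus strand): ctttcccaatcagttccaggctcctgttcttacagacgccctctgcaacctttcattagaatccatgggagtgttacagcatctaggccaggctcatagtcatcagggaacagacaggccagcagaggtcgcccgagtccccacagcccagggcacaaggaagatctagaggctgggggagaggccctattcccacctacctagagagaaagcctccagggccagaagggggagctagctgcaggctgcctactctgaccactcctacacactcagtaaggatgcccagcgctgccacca
Slc7a9 (chr7:35448842-35449141, plus strand): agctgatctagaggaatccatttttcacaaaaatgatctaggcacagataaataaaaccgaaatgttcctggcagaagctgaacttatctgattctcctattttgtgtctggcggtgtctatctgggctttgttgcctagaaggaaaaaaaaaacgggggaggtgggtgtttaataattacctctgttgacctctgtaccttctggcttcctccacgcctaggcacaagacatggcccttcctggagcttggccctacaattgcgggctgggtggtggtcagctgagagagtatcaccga
Slc3a1 (chr17:85028097-85028396, plus strand): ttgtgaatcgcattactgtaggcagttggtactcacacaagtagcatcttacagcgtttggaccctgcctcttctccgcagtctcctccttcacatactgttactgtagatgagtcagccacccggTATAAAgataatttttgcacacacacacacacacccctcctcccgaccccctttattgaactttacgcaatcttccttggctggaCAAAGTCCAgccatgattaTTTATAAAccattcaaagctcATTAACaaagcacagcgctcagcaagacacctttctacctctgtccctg

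The Slc3a1 promoter held all 3 motifs. Its HNF4 site begins 39 bases before the annotated start, its TATA boxes begin at −124 and −18 with an overlapping match on the minus strand at −20, and an HNF1 half-site on the minus strand begins at base 2 after the start. Across 32851 promoters of the same length, 0.475% held the HNF4 site, 7.10% the HNF1 half-site and 13.6% the TATA box. Among the other promoters of the members, an HNF1 half-site was found in 1 of those of Slc7a7, at −86, and no match in those of Slc6a19, Slc7a9, Slc1a1, Slc7a8 and Slc3a2. The windows of Slc6a19, Slc7a9 and Slc3a2 lie inside the GENCODE spans of these genes, so the bases before their GENCODE starts were not searched. A match shows only that these letters are in the window.

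Other amino acid carriers gave a measure of the wider pathway. The lists held 43 genes, of which 29 are further carriers of the plasma membrane, 8 carriers of lysosomes and other inner membranes, 4 peptide carriers and 2 partners, and 24 of the 43 passed the filter. By edgeR's quasi-likelihood test 0 of 24 had an adjusted p under 0.05. An unadjusted p under 0.05 was found for 2 of the 24, both lower with rilmenidine, a share no larger than the 10.6% of all genes tested, of which 445 were higher and 616 lower. Of their fold changes on the log2 scale 10 were positive and 14 negative, with a median of −0.03. Slc36a1, a proton-coupled amino acid carrier of lysosomes, had 82.7 ± 17.4 CPM (SD, n = 6) in control and 45.1 ± 4.89 (SD, n = 4) in rilmenidine kidneys, a log2 fold change of −0.87 with a standard error of 0.17 and an adjusted p of 0.174 by edgeR. Slc6a15, a carrier of branched-chain amino acids, had 26.9 ± 13.5 and 16.8 ± 1.34 CPM (−0.68, standard error 0.30, adjusted p = 0.442 by edgeR). In the higher direction the glutamate carrier Slc1a2 had the smallest p (11.9 ± 4.67 and 17.1 ± 8.64 CPM, log2 fold change 0.51, adjusted p = 0.618 by edgeR).

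Cltrn, the partner of Slc6a19, was more abundant than any member, with 2758 ± 253 CPM (SD, n = 6) in control and 3113 ± 325 (SD, n = 4) in rilmenidine kidneys (log2 fold change 0.17, standard error 0.14, adjusted p = 0.691 by edgeR).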

How the data were processed

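Counts of reads per Ensembl gene were deposited by the authors without normalization, for 10 kidney libraries (6 control, 4 rilmenidine) grouped by their labels. The study's methods give more control kidneys, which were not analysed here. The submitters' processing notes name bcl2fastq 1.8.4, Trimmomatic 0.32, STAR 2.5.2b, featureCounts 1.5 and the build mm10. Annotation release, strand setting and handling of molecular identifiers are not given in the sources used here, so amplified copies may be counted more than once. Libraries were made by the CEL-Seq2 approach, which reads 3′ ends. Of 43629 genes, 42548 were found in GENCODE M21 (GRCm38), the source of symbols, coordinates and exon lengths.

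The 10055 genes that reached 6 reads in 7 or more libraries were normalized by RLE and tested with the quasi-likelihood test of edgeR 4.0.16 (R 4.3.3) on all 10 libraries without covariates. P-values were adjusted by Benjamini-Hochberg over all genes, with a threshold of 0.05. Log2 CPM used a prior count of 2. Correlations used all 17280 orders within groups (smallest p 5.79e-05). Alternatives were TMM, other filters, DESeq2 1.42.0, the likelihood ratio test, covariates of log2 library size and log2 Malat1, the replicate number as a block, the 7 libraries with at least 10 receptor CPM, another prior count (0.5), and leaving out each kidney. No library was a copy of another, with a chi-square per degree of freedom of 3.67 in the most similar pair.

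The members and lists were chosen with earlier results of these data known. The 21 pairs, the late to early ratio with its 9 comparisons, the shared 3′ ends and the motifs were chosen after seeing the data. Genes outside the members were named by a rule, the 2 with the smallest p in each direction over the carrier lists (Slc36a1, Slc6a15, Slc1a2 and Cltrn), and for each member tested the gene most alike. The rule covers 1 further gene, which is not reported here. Slc6a20b, Slc7a10, Slc15a3, Kap, Slc34a1, Miox, Calb1 and Umod were named after their values were seen. Intervals and tests cover counting error and differences among animals, not errors in processing the reads. With the filter of 1 count in any library they follow the differences of single genes less.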

Additional observations from a re-analysis of the deposited data

How the results depend on the processing

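No member was called under any alternative run. The count of genes called over the whole table was 0 with all kidneys (1061 at an unadjusted p under 0.05), and it was 241 with at least 1 count in any library, 60 with DESeq2, 44 with the likelihood ratio test and 0 to 37 when kidneys were left out in turn (33 without control 2, 37 without control 6, 6 without rilmenidine 1). Of the other carriers 1 gene, Slc36a1, was called under the 1-count filter, DESeq2 and the likelihood ratio test, and 0 to 1 when kidneys were left out (1 without control 2 and without control 6).

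The signs of the members' log2 fold changes were less steady, and 19 of 151 alternative values were reversed. With log2 Malat1 as a covariate they were 0.56 for Slc6a18, −0.057 for Slc7a9, 0.44 for Slc7a13, 0.060 for Slc1a1, 0.59 for Slc7a7, −0.00034 for Slc7a8 and −0.080 for Slc3a2. With log2 library size Slc7a13 was at 0.045 and Slc7a7 at 0.94, and in the 7 libraries with receptor reads Slc7a7 was at 0.38. With kidneys left out in turn they ran from −0.037 to 0.45 for Slc6a19, −0.33 to 0.14 for Slc6a18, −0.055 to 0.20 for Slc7a9, −0.26 to 0.039 for Slc7a13, −0.44 to 0.22 for Slc7a7, −0.26 to −0.054 for Slc1a1, 0.064 to 0.40 for Slc7a8 and 0.11 to 0.27 for Slc3a2. The Malat1 covariate was partly confounded with the group, and the cause of the reversals was not tested.

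The log2 apical to basolateral ratio of controls, 2.48, was 3.87 without the leading gene of each side and 2.37 to 2.64 with kidneys left out, and its difference between groups, −0.17, ran from −0.33 to −0.06. Of the 7 planned pairs 0 to 1 passed with kidneys left out, Slc6a19 with Slc6a18 at r = −0.895 without control 4. Slc7a7 with Slc3a2 gave r = 0.124 and Slc7a8 with Slc3a2 −0.066 in the 7 libraries, and Slc7a7 with Slc3a2 ran from −0.338 to 0.230 with kidneys left out. The group difference in mean total counts, 940440, ran from 697423 to 1170290, passing 0.05 by exact permutation without control 6 (1139750), rilmenidine 1 (1170290) or rilmenidine 2 (1133280).

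Same-numbered kidneys did not deviate together (r from −0.0749 to 0.0782). This gave no sign of pairing by number, but it cannot exclude one. With the replicate number as a block 3 genes and 0 members were called, and Slc7a8 had a log2 fold change of 0.43 (unadjusted p = 0.0479, adjusted 0.541 by edgeR). Depth limits Slc3a1, Slc7a7 and Slc7a12, with at most 15 reads in any library.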
